A study of Cucumis sativus with 6 samples.

Results

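The genes described here are the ubiquitin ligases, F-box proteins and related proteins among the genes that differ between Cshec2 mutant and wild type buds of cucumber (Cucumis sativus). They were found by a search of the Swiss-Prot description of each gene for ubiquitin, RING-H2, U-box, F-box or BTB/POZ, which gave 50 of the 1589 genes listed. The libraries came from female flower buds collected 7 days before anthesis, 3 from plants homozygous for the Cshec2 mutation (Cshec2-/-) and 3 from wild type plants. Both genotypes share tissue and stage, and the labels name neither the lesion nor the number of mutant lines behind the 3 libraries. The study's title places CsHEC2, the mutated gene, in the formation of fruit warts and in cytokinin biosynthesis.

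Ubiquitin is a small protein that cells attach to other proteins, most often to mark them for destruction by the proteasome. An activating and a conjugating enzyme carry it, and a ligase chooses the substrate. RING and U-box ligases bind the substrate and the conjugating enzyme themselves, whereas F-box and BTB proteins are the substrate adaptors of ligases built on cullin scaffolds. Plant genomes hold very large families of such adaptors, and the receptors or regulators of auxin, jasmonate, gibberellin, ethylene and cytokinin signalling work through them. Deubiquitinating enzymes remove ubiquitin or take its chains apart.

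The table holds only genes that the authors had selected as differing between these same 6 libraries, so every member had already met the authors' limits. The authors' deposited table lists 10 of the 50 members as higher in the mutant and 40 as lower. The counts below therefore describe the members and are not an independent test of whether they changed. Values are a normalised expression level without a named unit, given for libraries 1 to 3 of each genotype in that order throughout, and read depth is unknown. None of the descriptions names the mutated gene, so the genotype labels were not checked by its expression. Summed over the table, the values came to between 23592 and 24173 in the mutant libraries and between 41126 and 59342 in the wild type libraries. Wild type library 3 stood apart with the highest sum, and wild type was the more variable genotype. Genes known for rising in darkness or sugar starvation (dormancy-associated and TSJT1-type genes, 7 listed) summed to 214, 234 and 215 in the mutant against 334, 1797 and 5102 in wild type, and their part in the results below was not tested. Of the 6 genes listed under the names CRABS CLAW, YABBY or MADS-box protein, searched as a check of the tissue label, 3 rose and 3 fell. CRABS CLAW (Csa5G606780) had 253, 233 and 266 in the mutant libraries, against 168, 137 and 109.8 in the wild type ones, so a defining carpel gene was present in every library; YABBY 1 and YABBY 5 were also higher in the mutant. The lower ones were the MADS-box genes described as SVP, SOC1 and CMB1, with log2 changes of -1.34, -1.06 and -0.94. No gene of the anther and pollen list is among those listed (0 genes). In bulk tissue, a smaller share of a cell type and less RNA per cell cannot be told apart.

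The genotypes were set against each other with limma on log2(value + 1), with Benjamini-Hochberg adjustment over all 1589 genes and a threshold of 0.05. Of the 50 members, 37 fell, 10 rose and 3 did not pass. Of the members 74.0% fell and 20.0% rose, against 74.3% and 18.4% of all listed genes, of which 92.7% passed in either direction, so the members' split was near that of the background. The median log2 change was -0.72 over the members and -0.77 over the table. Values of the genotypes did not overlap for 47 of the 50 members, against 94.0% of the table. Changes of at least 1 on the log2 scale were found for 11 lower and 2 higher of the 50 members. Over the table they were found for 509 lower and 49 higher of the 1589 genes (32.0% and 3.08%). Large decreases were thus a smaller share of the members than of the table on this scale, which understates low genes. Csa1G045990, for example, had a wild type mean 5.30-fold the mutant mean but a log2 change of -0.83. Whether the difference in shares holds on another scale was not tested.

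Most lower calls, and the direction of some lower members, depended on how libraries were scaled. Scaling by the median of ratios, which centres a table made of selected and mostly lower genes, moved the median log2 change of all genes by 0.74, from -0.77 to -0.025. Under it 10 members were higher and 2 lower, the U-box gene Csa1G045990 and the RING-H2 gene Csa6G518350. The median over the members was 0.043. Over the table, 293 of the 1589 genes were higher and 225 lower under this scaling. Of the 37 lower members 21 kept a negative log2 change and 16 turned positive, with a median of -0.18 over the 37. All 10 higher members were called under both scalings. The scaling divides mutant values by 0.716 to 0.736 and wild type values by 1.28 to 1.57. It therefore moves log2 changes upward, and a higher call kept under it is no check of that call. The lower calls given below are on the deposited scale, and a member lower than wild type by about the table's median is no lower than the other listed genes are. Each of the 6 libraries was also left out in turn. A call is given as lost where the fit without that 1 library no longer passed. Lower calls over the whole table also dropped without 1 mutant library, from 1180 to between 823 and 860, and to 971 without wild type library 2. Such a loss was therefore common among the listed genes.

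**Figure D1:**
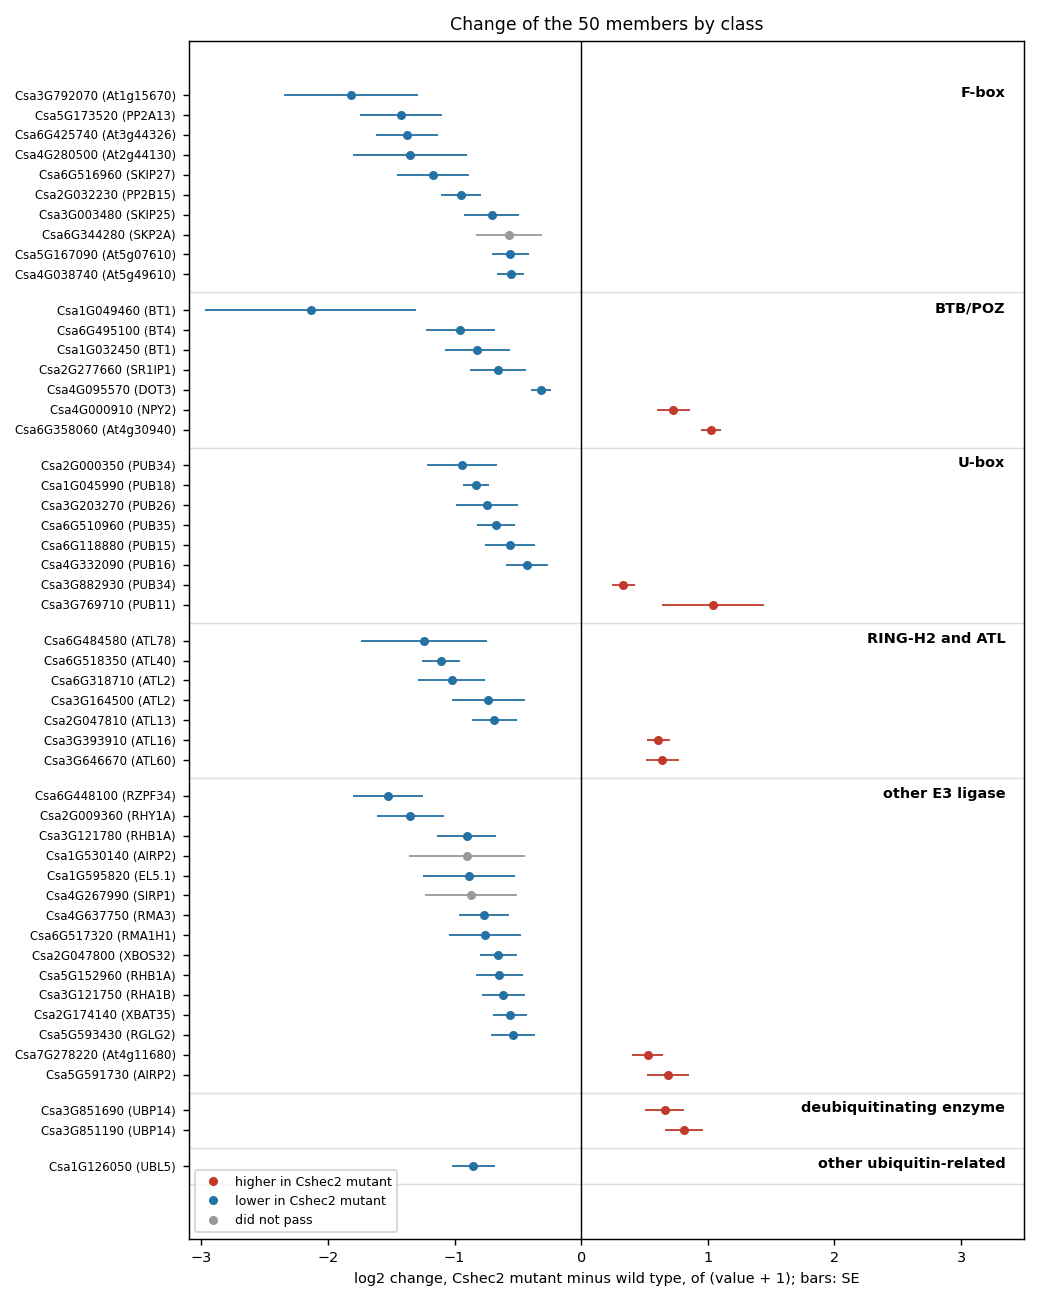
Log2 change of (value + 1), Cshec2 mutant minus wild type, for each of the 50 members grouped by class, with the SE from limma as bars and the Swiss-Prot gene name in brackets. On this scale, that of the deposited values, all 10 F-box genes lie left of 0, both UBP14 genes lie right of it, and the other classes with more than 1 gene have members on both sides.

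F-box genes were the class with the lowest median log2 change. All 10 had a negative log2 change and 9 passed as lower, with a median of -1.06; after median-of-ratios scaling 7 stayed negative and 0 passed, with a median of -0.40. The largest change on the log2(value + 1) scale was that of Csa3G792070, described as the kelch-repeat F-box protein At1g15670. By the authors' log2 fold change, Csa5G173520 fell further (-1.53, against -1.10 for Csa3G792070). Csa3G792070 had 9.35, 9.07 and 10.3 in the mutant libraries, against 14.8, 41.0 and 76.8 in the wild type ones. All 3 wild type values lay above the mutant ones, and wild type library 1 was much the nearest to them (log2 change -1.82, SE 0.53, limma adjusted p = 0.0166). The call was lost without wild type library 2 (limma adjusted p = 0.0522). Csa4G280500, described as At2g44130, had 20.4, 21.2 and 21.4 in the mutant libraries, against 25.1, 71.4 and 92.5 in the wild type ones. Here too wild type library 1 lay just above the mutant and libraries 2 and 3 far above it (log2 change -1.35, SE 0.45, limma adjusted p = 0.0249). The call was lost without mutant library 1, 2 or 3 or wild type library 2 or 3 (limma adjusted p between 0.0558 and 0.0819). In Arabidopsis both descriptions belong to the KISS ME DEADLY F-box proteins, which mark type-B response regulators of cytokinin signalling and phenylalanine ammonia-lyase for degradation.

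Csa6G425740 is described as At3g44326, an F-box protein named in Arabidopsis for the induction of its gene by cytokinin. It had 5.94, 6.74 and 5.28 in the mutant libraries, against 13.0, 15.7 and 24.2 in the wild type ones. Every mutant library lay well below every wild type one (log2 change -1.38, SE 0.24, limma adjusted p = 0.00388). With just wild type library 1 as control the log2 change was -1.01. Csa5G173520 and Csa2G032230 are described as PP2-A13 and PP2-B15, F-box proteins that carry a domain of the phloem lectins. For Csa5G173520 the values were 1.43, 1.60 and 1.36 in the mutant libraries, against 3.10, 5.91 and 9.23 in the wild type ones (log2 change -1.43, SE 0.32, limma adjusted p = 0.00775). Csa2G032230 measured 0.859 ± 0.212 in mutant buds, against 2.60 ± 0.496 in wild type buds (SD, n = 3, as for the other means; log2 change -0.95, limma adjusted p = 0.00322). Both fell, while of the 4 other genes with phloem names 3 were higher and 1 lower, summing to between 28.0 and 32.4 in the mutant and between 19.0 and 22.3 in wild type.

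Among the genes named for binding SKP1, the subunit that joins F-box proteins to the cullin, Csa6G516960 (SKIP27) had 4.42, 2.42 and 3.04 in the mutant libraries, against 10.3, 5.67 and 10.3 in the wild type ones. It was lower in every mutant library, with library 2 the lowest of both genotypes (log2 change -1.17, SE 0.28, limma adjusted p = 0.00920). Csa3G003480, described as the kelch-repeat protein SKIP25, measured 3.02 ± 0.364 in mutant buds, against 5.69 ± 1.75 in wild type buds, and also fell (limma adjusted p = 0.0201); the call was lost without mutant library 2 or 3 (limma adjusted p between 0.0600 and 0.0669), and after median-of-ratios scaling the change was 0.040. Csa6G344280, described as SKP2A, which in Arabidopsis binds auxin and targets cell-cycle factors, was the F-box gene that did not pass. Its values were 19.6, 21.1 and 20.4 in the mutant libraries, against 21.2, 30.9 and 43.9 in the wild type ones (log2 change -0.57, limma adjusted p = 0.0655). Wild type library 1 lay close to the mutant, and without that library the gene passed (limma adjusted p = 0.00562); after median-of-ratios scaling its log2 change was 0.32. The remaining F-box genes, Csa5G167090 and Csa4G038740, described as At5g07610 and At5g49610, also fell. The first measured 1.64 ± 0.266 in mutant buds, against 2.88 ± 0.296 in wild type buds (limma adjusted p = 0.0116; change 0.074 after median-of-ratios scaling), and the second 0.295 ± 0.0726 in mutant buds, against 0.910 ± 0.179 in wild type buds (limma adjusted p = 0.00444). The Pfam text of the table names an F-box domain for 4 of the 10 genes. Of the others, 2 have kelch repeats, 2 the phloem protein domain and 2 no Pfam entry, so these 6 are F-box genes by description and not by domain. The NR description holds a search term for 8 of the 10 genes. Csa6G425740 (At3g44326) is the gene that neither the Pfam nor the NR text bears out.

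**Figure D2:**
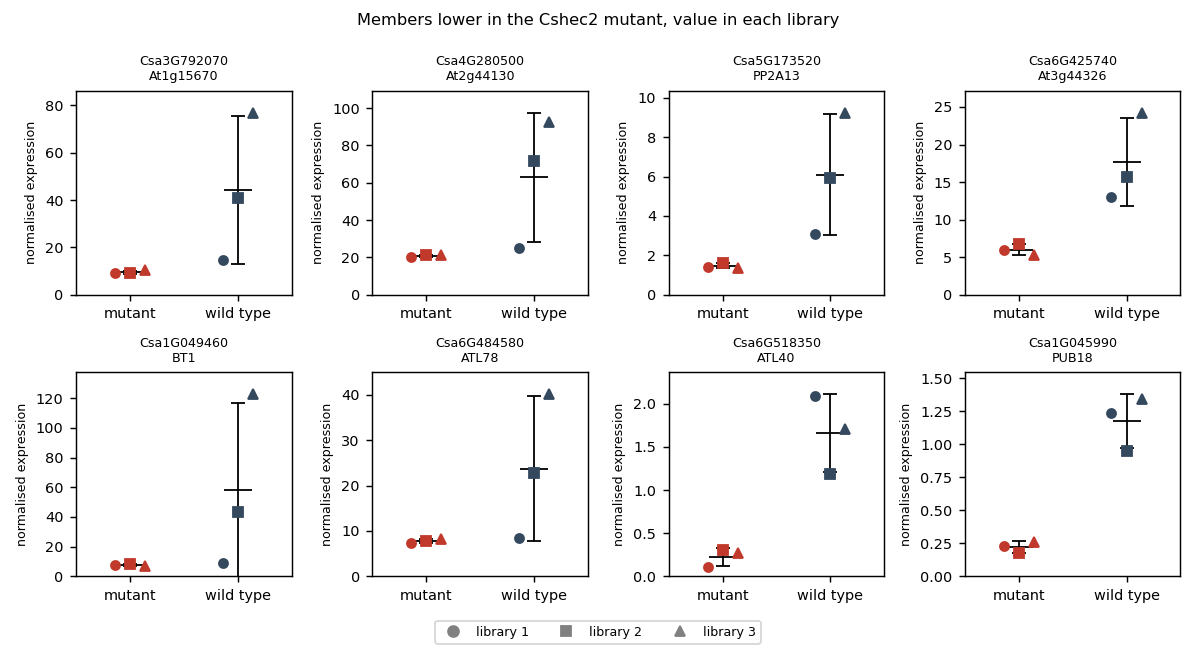
Normalised expression of 8 lower members in each library, mutant left and wild type right, on linear axes from 0; horizontal marks are means and bars SDs of 3 libraries, cut at 0 for Csa1G049460. Wild type library 1 (circle) lies near the mutant for Csa3G792070, Csa4G280500, Csa1G049460 and Csa6G484580, and far from it for Csa6G518350 and Csa1G045990.

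BTB/POZ proteins are the adaptors of cullin ligases of another type. Of 7 such genes 5 fell and 2 rose, with a median log2 change of -0.66 that became 0.047 after median-of-ratios scaling, under which 0 were lower. The 3 genes with a TAZ domain, a group whose Arabidopsis members bind calmodulin and act in gametophyte development, all fell on the deposited scale. Csa1G049460, described as BT1, had 7.27, 8.58 and 6.77 in the mutant libraries, against 8.61, 43.0 and 123 in the wild type ones. Wild type library 1 was level with mutant library 2, library 2 was several times higher and library 3 higher still (log2 change -2.14, SE 0.83, limma adjusted p = 0.0420). With just wild type library 1 as control the change was -0.18, and without that library -3.12. The call was lost without mutant library 1, 2 or 3 or wild type library 2 or 3 (limma adjusted p between 0.0810 and 0.110). The authors' deposited table gives it a log2 fold change of -0.83 and an FDR of 0.0320.

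The second gene described as BT1, Csa1G032450, had 9.14, 10.8 and 10.6 in the mutant libraries, against 15.6, 14.9 and 28.1 in the wild type ones. Wild type library 3 was again the highest, but libraries 1 and 2 also lay above all mutant values (log2 change -0.82, SE 0.26, limma adjusted p = 0.0207). After median-of-ratios scaling the change was 0.047, and the call was lost without mutant library 1, 2 or 3 (limma adjusted p between 0.0523 and 0.0670). Csa6G495100 (BT4) measured 0.846 ± 0.0456 in mutant buds, against 2.78 ± 1.59 in wild type buds (limma adjusted p = 0.0155). Csa2G277660, described as SR1IP1, which in Arabidopsis adapts a calmodulin-binding repressor of defence genes to the ligase, had 2.28, 3.25 and 2.95 in the mutant libraries, against 5.41, 6.33 and 3.60 in the wild type ones. Here wild type library 3 was the lowest of its genotype (log2 change -0.66, SE 0.22, limma adjusted p = 0.0267), and the change was 0.067 after median-of-ratios scaling. The call was lost without mutant library 1, 2 or 3 or wild type library 2 (limma adjusted p between 0.0508 and 0.0879). Csa4G095570, described as DOT3, which in Arabidopsis patterns leaf veins, measured 0.385 ± 0.0304 in mutant buds, against 0.724 ± 0.0452 in wild type buds. That is a log2 change of -0.32 (limma adjusted p = 0.0105), on a scale that understates low genes, and it became 0.007 after median-of-ratios scaling.

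For both higher BTB/POZ genes, all mutant values lay above all wild type values. Csa4G000910, described as NPY2, a relative of NPH3 that in Arabidopsis acts with auxin in organ formation, had 35.1, 34.0 and 32.9 in the mutant libraries, against 19.8, 19.6 and 21.0 in the wild type ones. The genotypes were far apart relative to their spread (log2 change 0.73, SE 0.13, limma adjusted p = 0.00379). Csa6G358060, described as At4g30940, had 1.03, 1.20 and 1.09 in the mutant libraries, against 0.00942, 0.0309 and 0.0622 in the wild type ones. It was close to 0 in every wild type library, where its highest value was 6.60-fold the lowest, and near 1 in every mutant library, with a mutant mean 32.4-fold the wild type mean (log2 change 1.03, SE 0.080, limma adjusted p = 0.000558). That ratio rests on wild type values near 0 and its precision is unknown without read counts; the authors' deposited table lists a log2 fold change of 2.25. The Pfam text names a BTB/POZ domain for 6 of the 7 genes, and Csa6G358060 has no Pfam entry.

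**Figure D3:**
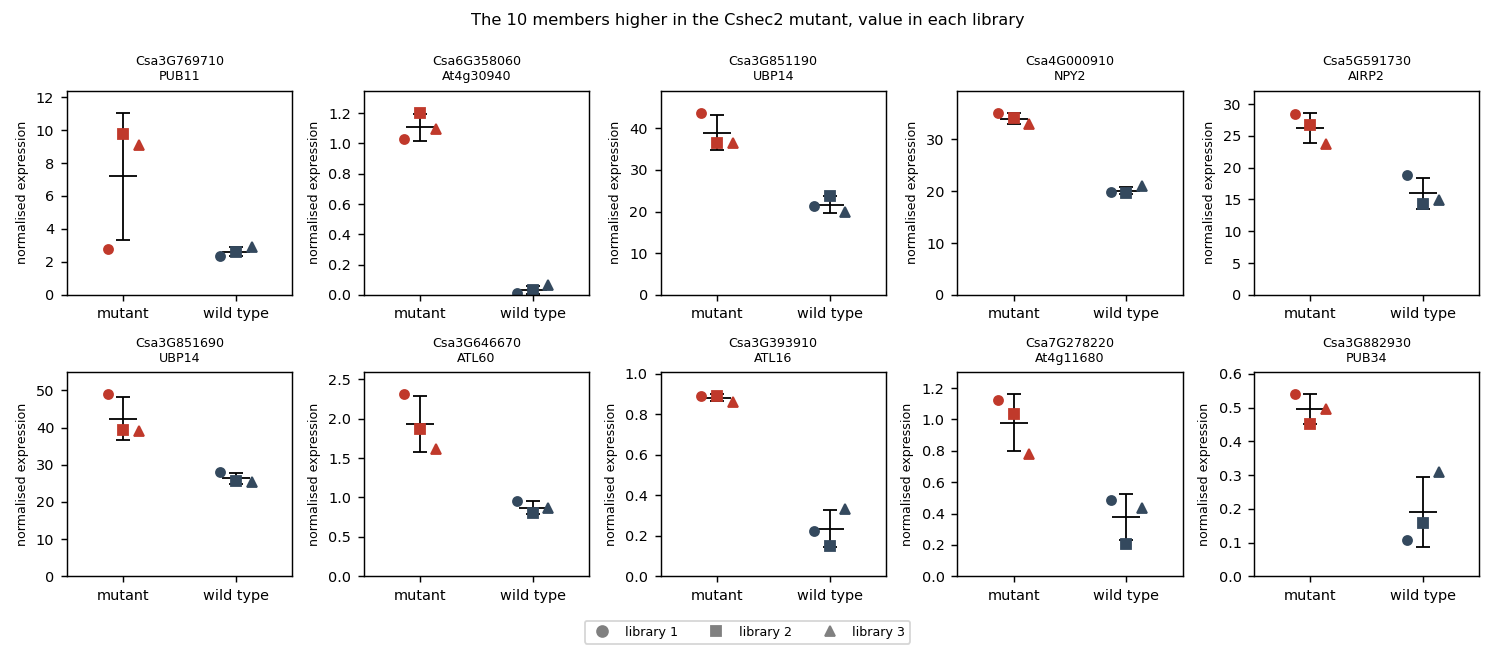
Normalised expression of the 10 higher members in each library, mutant left and wild type right, on linear axes from 0; horizontal marks are means and bars SDs of 3 libraries. The genotypes do not overlap for 9 of the 10 genes, and Csa3G769710 (PUB11) overlaps because mutant library 1 lies at 2.76.

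U-box ligases use a domain folded like a RING. Of 8 U-box genes 6 fell and 2 rose, with a median log2 change of -0.62 that became 0.14 after median-of-ratios scaling, under which 1 was lower. That gene was Csa1G045990, described as PUB18, which in Arabidopsis dampens abscisic acid responses. It had 0.229, 0.174 and 0.261 in the mutant libraries, against 1.24, 0.947 and 1.34 in the wild type ones. All wild type values were several times the mutant ones and no library stood out (log2 change -0.83, SE 0.10, limma adjusted p = 0.00133). With median-of-ratios scaling the change was -0.50 (limma adjusted p = 0.00528). Csa6G510960 (PUB35) measured 0.491 ± 0.129 in mutant buds, against 1.39 ± 0.423 in wild type buds (log2 change -0.67, SE 0.15, limma adjusted p = 0.00791). The Pfam text names a U-box domain for 5 of the 8 genes. For Csa6G510960 and for Csa3G769710, given below, neither the Pfam nor the NR text names a U-box.

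Opposite directions were found for both genes described as PUB34, named after a U-box protein with a protein kinase domain. Csa2G000350 fell, with 0.429, 0.342 and 0.386 in the mutant libraries, against 0.843, 1.46 and 3.13 in the wild type ones (log2 change -0.94, SE 0.28, limma adjusted p = 0.0173). Csa3G882930 rose, with 0.540, 0.453 and 0.496 in the mutant libraries, against 0.106, 0.158 and 0.308 in the wild type ones (log2 change 0.33, SE 0.089, limma adjusted p = 0.0130). Each pair of genotypes was separate, and the NR description of Csa3G882930 gives it as U-box protein 52 and its Pfam text names the kinase but no U-box, so the shared name is one of similarity. The lower call was lost without mutant library 2 (limma adjusted p = 0.0506). Csa3G769710, described as PUB11, had 2.76, 9.74 and 9.09 in the mutant libraries, against 2.34, 2.58 and 2.91 in the wild type ones. Mutant libraries 2 and 3 were far above wild type, and mutant library 1 lay among the wild type values, below wild type library 3 (log2 change 1.04, SE 0.40, limma adjusted p = 0.0413). The call was lost without mutant library 2 or 3 or wild type library 1, 2 or 3 (limma adjusted p between 0.0628 and 0.125).

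The U-box class held 3 further lower genes. Csa3G203270, described as PUB26, measured 5.52 ± 0.467 in mutant buds, against 10.2 ± 3.58 in wild type buds (log2 change -0.74, limma adjusted p = 0.0244), and Csa6G118880, described as PUB15, 6.68 ± 0.346 in mutant buds, against 10.5 ± 2.72 in wild type buds (log2 change -0.56, limma adjusted p = 0.0314). After median-of-ratios scaling these log2 changes were 0.077 and 0.27. Csa4G332090 (PUB16) measured 1.77 ± 0.319 in mutant buds, against 2.72 ± 0.518 in wild type buds, and fell (limma adjusted p = 0.0420), with a change of 0.21 after median-of-ratios scaling. The call for PUB26 was lost without mutant library 1, 2 or 3 or wild type library 2 (limma adjusted p between 0.0505 and 0.0763), that for PUB15 without mutant library 1, 2 or 3 (limma adjusted p between 0.0674 and 0.0960) and that for PUB16 without mutant library 1, 2 or 3 or wild type library 2 or 3 (limma adjusted p between 0.0555 and 0.141).

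RING-H2 proteins of the ATL type are ligases with a membrane anchor, several of which respond quickly to pathogen signals in Arabidopsis. Of 7 genes 5 fell and 2 rose, with a median log2 change of -0.73 that became -0.007 after median-of-ratios scaling, under which 1 was lower. That gene was Csa6G518350 (ATL40), with 0.107, 0.302 and 0.273 in the mutant libraries, against 2.09, 1.19 and 1.70 in the wild type ones. The mutant was low in all libraries and wild type library 1 was the highest (log2 change -1.11, SE 0.15, limma adjusted p = 0.00176). With median-of-ratios scaling the change was -0.74 (limma adjusted p = 0.00724). Csa6G484580 (ATL78) had the lowest change of the class on the log2(value + 1) scale. By means, wild type was 7.31-fold the mutant for ATL40 and 3.03-fold for ATL78. The wild type of ATL78 was uneven, with 7.42, 7.86 and 8.27 in the mutant libraries, against 8.34, 22.8 and 40.1 in the wild type ones. Wild type library 1 lay just above the mutant (log2 change -1.24, SE 0.50, limma adjusted p = 0.0457), and with just that library as control the change was -0.079. The call was lost without mutant library 1, 2 or 3 or wild type library 2 or 3 (limma adjusted p between 0.0911 and 0.120).

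Both genes described as ATL2, a gene that responds early to chitin in Arabidopsis, fell. Csa6G318710 measured 2.41 ± 0.334 in mutant buds, against 6.18 ± 2.25 in wild type buds (log2 change -1.02, SE 0.27, limma adjusted p = 0.0120), and Csa3G164500 2.59 ± 0.592 in mutant buds, against 5.17 ± 2.36 in wild type buds (log2 change -0.73, SE 0.29, limma adjusted p = 0.0433). The first passed in all 6 fits that left out a library, and the call of the second was lost without mutant library 1, 2 or 3 or wild type library 2 or 3 (limma adjusted p between 0.0627 and 0.133). Csa2G047810 (ATL13) measured 3.79 ± 0.442 in mutant buds, against 6.75 ± 1.15 in wild type buds (limma adjusted p = 0.0118). The change of -0.69 on the log2 scale became 0.086 after median-of-ratios scaling. The higher genes of the class were Csa3G393910 (ATL16), with 0.892, 0.892 and 0.861 in the mutant libraries, against 0.222, 0.151 and 0.331 in the wild type ones, and Csa3G646670 (ATL60), with 2.31, 1.87 and 1.62 in the mutant libraries, against 0.954, 0.797 and 0.865 in the wild type ones. Both were low genes whose mutant values all lay above all wild type values (log2 changes 0.61 and 0.64, limma adjusted p = 0.00222 and 0.00545).

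The other described ligases, nearly all with a RING domain in the Pfam text (14 of 15), held 11 lower and 2 higher genes, and 2 that did not pass. Their median log2 change of -0.76 became 0.079 after median-of-ratios scaling, under which 0 were lower. Csa6G448100, described as RZFP34, a RING and CHY zinc finger protein linked to abscisic acid and drought responses in Arabidopsis, had 8.11, 8.64 and 9.61 in the mutant libraries, against 18.7, 26.0 and 40.7 in the wild type ones. Every mutant library was far below every wild type library (log2 change -1.52, SE 0.28, limma adjusted p = 0.00416). Csa2G009360, described as RHY1A, had 6.81, 6.004 and 4.77 in the mutant libraries, against 13.6, 13.3 and 24.0 in the wild type ones. Wild type library 3 was the highest, and the gene passed in all 6 fits that left out a library (log2 change -1.35, SE 0.26, limma adjusted p = 0.00491).

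Both genes described as RHB1A fell. Csa3G121780 measured 2.29 ± 0.144 in mutant buds, against 5.33 ± 1.96 in wild type buds (limma adjusted p = 0.0117), and Csa5G152960 6.83 ± 0.462 in mutant buds, against 11.4 ± 2.39 in wild type buds (limma adjusted p = 0.0168); after median-of-ratios scaling the change of the second was 0.19. The RMA ligases sit in the membrane of the endoplasmic reticulum. Csa4G637750 (RMA3) measured 7.50 ± 0.475 in mutant buds, against 13.7 ± 3.18 in wild type buds, and the change of -0.77 on the log2 scale (limma adjusted p = 0.0109) became 0.079 after median-of-ratios scaling. Csa6G517320, described from pepper as RMA1H1, measured 14.8 ± 0.879 in mutant buds, against 27.2 ± 11.9 in wild type buds (limma adjusted p = 0.0372; 0.13 on the log2 scale after median-of-ratios scaling). The other lower genes were Csa2G047800 (XBOS32) and Csa2G174140 (XBAT35), which carry ankyrin repeats, Csa3G121750 (RHA1B) and Csa5G593430 (RGLG2), which carries a copine domain. Their log2 changes lay between -0.65 and -0.54. After median-of-ratios scaling they were 0.21 for XBOS32, 0.32 for XBAT35, 0.19 for RHA1B and -0.20 for RGLG2. Of the lower ligases of this group, 5 lost the call in at least 1 fit that left out a library: RMA1H1 (Csa6G517320) without mutant library 1, 2 or 3 or wild type library 2 (limma adjusted p between 0.0564 and 0.0968), RHB1A (Csa5G152960) without mutant library 2 or 3 (limma adjusted p between 0.0506 and 0.0639), RHA1B (Csa3G121750) without mutant library 2 or 3 (limma adjusted p between 0.0506 and 0.0582), RGLG2 (Csa5G593430) without mutant library 1, 2 or 3 (limma adjusted p between 0.0546 and 0.0685), and EL5 as given below.

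Genes described as AIRP2, a ligase that promotes abscisic acid responses in Arabidopsis, went apart. Csa5G591730 rose, with 28.4, 26.6 and 23.7 in the mutant libraries, against 18.8, 14.2 and 15.0 in the wild type ones (log2 change 0.69, SE 0.16, limma adjusted p = 0.00886). Csa1G530140 did not pass, with 6.39, 5.02 and 6.43 in the mutant libraries, against 5.81, 11.0 and 25.2 in the wild type ones. Wild type library 1 lay among the mutant values and wild type library 3 far above them (log2 change -0.90, limma adjusted p = 0.0929), and with just wild type library 1 as control the change was 0.023. The NR description of Csa5G591730 names a peroxisome biogenesis factor, itself a RING protein, so this gene's identity differs between the descriptions. Csa7G278220, described as At4g11680, measured 0.980 ± 0.181 in mutant buds, against 0.376 ± 0.147 in wild type buds, and rose (limma adjusted p = 0.00812).

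The rice-described genes Csa4G267990 (SIRP1) and Csa1G595820 (EL5, a ligase first found as responsive to an elicitor) shared the uneven wild type. SIRP1 had 6.99, 6.99 and 6.71 in the mutant libraries, against 7.82, 12.5 and 24.2 in the wild type ones, and did not pass (limma adjusted p = 0.0523). EL5 had 2.74, 2.43 and 3.57 in the mutant libraries, against 3.10, 7.39 and 9.74 in the wild type ones; it passed (limma adjusted p = 0.0481), and the call was lost without mutant library 1, 2 or 3 or wild type library 2 or 3 (limma adjusted p between 0.0711 and 0.134). For both, wild type library 1 was close to the mutant, and for EL5 it lay below mutant library 3.

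The deubiquitinating enzymes were the class in which no gene fell. Both genes are described as UBP14, which takes free ubiquitin chains apart and in Arabidopsis limits endoreduplication. Csa3G851190 had 43.7, 36.5 and 36.5 in the mutant libraries, against 21.3, 23.8 and 19.9 in the wild type ones (log2 change 0.81, SE 0.15, limma adjusted p = 0.00432). Csa3G851690 had 49.0, 39.2 and 39.0 in the mutant libraries, against 28.0, 25.6 and 25.5 in the wild type ones (log2 change 0.66, SE 0.15, limma adjusted p = 0.00799). The order of the mutant libraries was alike in both genes, with library 1 the highest, and the genotypes did not overlap. Both passed in all 6 fits that left out a library. Under median-of-ratios scaling, which moves changes upward, their log2 changes were 1.71 and 1.56, so passing under it is no further check. They share one description and have close identifiers, and how reads that fit both were assigned is not given in the sources used here, so their separate values are uncertain. Csa1G126050, described as UBL5, a ubiquitin-like protein that acts in pre-mRNA splicing rather than in degradation, had 35.5, 39.7 and 35.1 in the mutant libraries, against 61.7, 59.8 and 81.7 in the wild type ones. It fell (log2 change -0.85, SE 0.17, limma adjusted p = 0.00508), with a log2 change of 0.060 after median-of-ratios scaling.

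**Figure D4:**
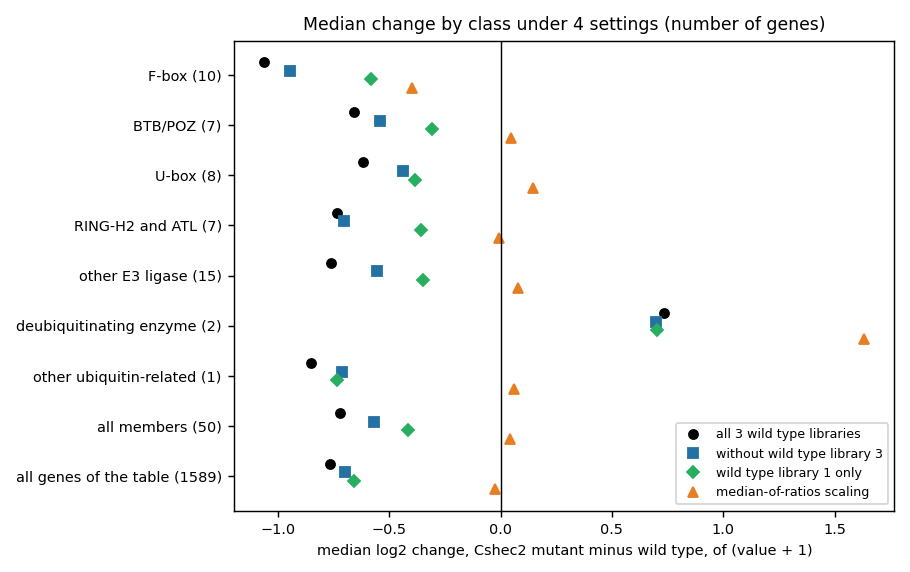
Median log2 change of (value + 1), Cshec2 mutant minus wild type, of each class, of all members and of all listed genes, with all libraries, without wild type library 3, with just wild type library 1 as control, and after median-of-ratios scaling. The medians of all members lie at -0.72, -0.57, -0.42 and 0.043, and those of the table at -0.77, -0.70, -0.66 and -0.025.

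Wild type libraries varied more than mutant libraries for most members, as for most of the table. The SD of log2 values was smaller in the mutant than in wild type for 44 of 50 members (88.0%), against 78.5% of the table. Its median over the members was 0.11 in the mutant and 0.32 in wild type, against 0.13 and 0.28 over the table. Wild type library 3 was the highest wild type library for 37 members, or 74.0%, against 51.6% of the table. For 13 members it exceeded wild type library 1 by at least 1 on the log2 scale, 26.0% against 16.5% of the table. Of these 13, 10 passed as lower and 3 did not pass: the genes of SKP2A, AIRP2 (Csa1G530140) and SIRP1. None of the 10 higher members was among them (0). The 13 included 4 of the 10 F-box genes, 2 of the 3 TAZ genes and 5 of the 15 genes described as other ligases.

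**Figure D5:**
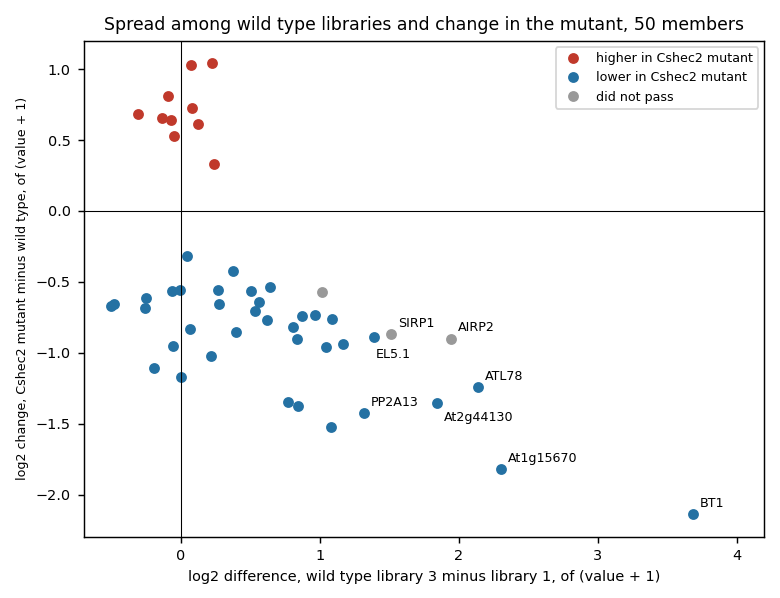
Each point is 1 of the 50 members: the horizontal axis is the log2 difference of (value + 1) between wild type libraries 3 and 1, the vertical axis the log2 change, mutant minus wild type. The axes share the wild type libraries, so no correlation is given; BT1 (Csa1G049460) lies farthest right at 3.69, and the 10 higher members lie between -0.31 and 0.24.

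With just wild type library 1 as control, the median log2 change over the members was -0.42, against -0.66 over the table. That fit assumes that the 1 control library varies as the mutant libraries do. Without wild type library 1, 40 members were lower and 9 higher, against 1236 and 289 of the 1589 genes of the table. The 3 members that otherwise did not pass were among the lower ones. Without wild type library 3, 31 members were lower and 9 higher, against 1098 and 287 genes of the table. In all 6 fits that left out a library in turn, 20 of the 37 lower and 9 of the 10 higher members passed. How many genes of the table passed in all 6 was not counted. In the single fits the table held between 823 and 1236 lower genes, against 1180 with all libraries. It held between 263 and 289 higher genes, against 293, so higher calls varied less over the table too. The sums given above for the dark and starvation genes, 7 of 7 of which fell, were lowest in wild type library 1 and highest in library 3; as the 13 members were chosen by the difference between these libraries, no comparison with them is made, and the part of those genes in the members' values was not tested. The 3 green tissue markers listed summed to 109, 125 and 111 in the mutant against 210.3, 165 and 213 in wild type, and all 3 fell.

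Partners and substrates of these ligases were few among the listed genes. Of scaffold, proteasome and related modifier genes 1 was listed, Csa7G419640, described as autophagy-related protein 8i, a ubiquitin-like protein of autophagy. It had 30.0, 31.1 and 27.2 in the mutant libraries, against 33.1, 39.3 and 63.8 in the wild type ones, and did not pass (log2 change -0.56, limma adjusted p = 0.0642), with wild type library 3 well above the rest. No cullin, SKP1 or proteasome gene was listed (0 genes), which says only that none met the authors' limits under such a name. Of 4 hormone-signalling genes from families whose members are substrates or partners of ligases, 3 fell and 1 did not pass. That is 75% lower against 74.3% of all listed genes, with a median log2 change of -0.72 against -0.77, so these genes were near the background. Csa2G059200, described as the auxin-responsive protein IAA33, measured 4.38 ± 0.906 in mutant buds, against 8.25 ± 0.969 in wild type buds (limma adjusted p = 0.00875). The abscisic acid receptor genes Csa5G139540 (PYL8) and Csa1G470460 (PYL11) also fell. The first measured 9.14 ± 0.466 in mutant buds, against 14.6 ± 2.78 in wild type buds (limma adjusted p = 0.0166), and the second 0.700 ± 0.187 in mutant buds, against 2.15 ± 0.944 in wild type buds (limma adjusted p = 0.0117). The fourth gene, Csa7G327730 (PYL8), had 15.9, 18.0 and 16.6 in the mutant libraries, against 16.1, 25.3 and 47.7 in the wild type ones, and did not pass (limma adjusted p = 0.115), with wild type library 1 among the mutant values.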

How the data were processed

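Per the labels' protocols, Trizol RNA went into an Illumina kit for each of the 6 libraries. The submitters' processing notes name the tools HISAT2, HISAT and DESeq2 only; which build was used is not given in the sources used here. The deposited table holds a normalised expression signal per gene and library, whose unit the header does not name, and a p-value adjusted by the authors (FDR) and the authors' log2 fold change. Depth is unknown. No sequence or coordinate is given, since 0 of the 50 members matched the RefSeq gene table.

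Limma 3.58.1 (R 4.3.3) compared the genotypes with a variance trend, on log2(value + 1), without filter or block. Its p-values were adjusted over 1589 genes. The step was tested on simulated data that gave both genotypes the same spread and held no low genes. Those data differ from the real ones, where wild type varied more and some members are low. Fold changes on the log2(value + 1) scale understate low genes. Classes follow the Swiss-Prot description, which is a similarity and not an established identity. Members and lists were chosen with earlier results of these data known. The 38 genes named by rule were all higher members, all that did not pass, and per class the 5 lower members with the largest change and a mean of at least 1; the other 12 were named afterwards, to account for every member. Alternatives were median-of-ratios scaling, no trend, a mean of at least 1, pseudocounts 0.1 and 0.5, a replicate block, each library left out, wild type library 1 as only control, a log2 change of at least 1, and wider or narrower membership. The design text calls the libraries biological replicates. Figures were drawn with matplotlib 3.10.9.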

Additional observations from a re-analysis of the deposited data

How the results depend on the processing

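Median-of-ratios scaling left 10 higher and 2 lower members and turned the members' median log2 change to 0.043; lower calls were 1 for U-box, 0 for F-box, 0 for BTB/POZ, 1 for RING-H2, 0 for other ligases and 0 for UBL5. It turned the log2 change of 17 of the 40 members with a negative one, 9 of them outside the naming rule and given above; the other 8 came to 0.047 for Csa1G032450, 0.060 for Csa1G126050, 0.086 for Csa2G047810, 0.067 for Csa2G277660, 0.077 for Csa3G203270, 0.079 for Csa4G637750, 0.27 for Csa6G118880 and 0.32 for Csa6G344280; none of the 17 passed under it. By construction this scaling centres a table made mostly of lower genes, and over the 1589 genes it left 225 lower and 293 higher. With a mean of at least 1, fewer genes were tested, and 6 members were higher, 1 each for U-box, BTB/POZ, RING-H2 and other ligases. With a log2 change of at least 1, 11 members were lower and 2 higher: lower 0 for U-box, 5 for F-box, 1 for BTB/POZ, 3 for RING-H2, 2 for other ligases and 0 for UBL5, and higher 1 for U-box, 1 for BTB/POZ, and 0 for RING-H2, other ligases and UBP14.

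Leaving out each library in turn gave 21 to 40 lower and 9 to 10 higher members. The lowest counts were 21 lower without mutant library 2 and 22 without mutant library 3. Lower calls over the table were 1180 with all libraries and 860, 823 and 850 without mutant library 1, 2 or 3. The members' median log2 change was then -0.75, -0.74 and -0.68, against -0.72 with all libraries. Lower calls ranged over 2 to 6 for U-box, 7 to 10 for F-box, 2 to 5 for BTB/POZ, 3 to 5 for RING-H2 and 6 to 13 for other ligases, and higher U-box calls over 1 to 2; the cause was not tested. With just wild type library 1 as control the members' median was -0.42, against -0.66 over the table, and Csa1G530140 had a log2 change of 0.023. The labels do not say whether the library numbers pair the samples. Same-numbered libraries had correlations of deviations of -0.092, -0.044 and -0.18, which cannot settle it with 3 libraries per genotype. With the replicate block 34 members were lower and 10 higher, against 1104 and 288 genes of the table. Of the other settings, leaving out the trend gave 37 lower and 10 higher members, and either smaller pseudocount 38 and 10. Adding NR and Pfam text raised the other ubiquitin-related class to 3 lower and 1 higher genes.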

Other observations

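A search of the NR and Pfam text added 4 genes that the Swiss-Prot descriptions do not name, and they went both ways. Csa6G182140 and Csa5G174560 are described as BAG family co-chaperones, which carry a ubiquitin-like domain and bind Hsp70. Csa6G182140 had 2.44, 2.75 and 2.84 in the mutant libraries, against 5.24, 5.50 and 6.72 in the wild type ones (log2 change -0.89, SE 0.16, limma adjusted p = 0.00416). Csa5G174560 had 16.3, 17.1 and 16.9 in the mutant libraries, against 37.0, 24.2 and 22.9 in the wild type ones; it fell, and wild type library 1 was the highest (log2 change -0.68, SE 0.21, limma adjusted p = 0.0186). Csa2G007410, whose Pfam text names a BRCA1-associated protein and a zinc finger of ubiquitin hydrolases, had 27.9, 23.0 and 23.9 in the mutant libraries, against 15.0, 13.3 and 13.4 in the wild type ones, and rose (log2 change 0.79, SE 0.15, limma adjusted p = 0.00438). The fourth was the autophagy gene Csa7G419640, given above.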
